A study of Homo sapiens with 4 samples.

Results

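Transcripts of the poly(A)-binding proteins and of the PAIP proteins that bind them were followed in an RNA immunoprecipitation sequencing (RIP-seq) experiment on QKI7, a splice form of QKI, which is an RNA-binding protein. The 8 genes were taken by symbol from the 26830 gene rows of the deposited table: PABPC1, PABPC3, PABPC4, PABPC1L, PABPN1, PAIP1, PAIP2 and PAIP2B. PABPC1 was picked for its strong recovery in this same comparison, so its values are a description and carry no test, while the other 7 were chosen by name. Flag-RIP libraries (n = 2) held RNA recovered with a Flag antibody, and input libraries (n = 2) held RNA of the same cells with no antibody. Both groups came from U2OS, a human osteosarcoma line, infected with the lentivirus pmiRNA1-3 x Flag-QKI7, of which the GFP-positive cells were kept and expanded, so the inputs carry the tagged QKI7 as well. Cells of both groups had no other treatment, and their RNA and protein were cross-linked by UV, followed by lysis and sonication. The labels number the replicates but do not say whether each was a culture of its own, so p-values reflect only how far these samples lie apart, and that distance may be technical. A precipitation from cells without the tag was not analysed here, so recovery by QKI7 and recovery by antibody and beads cannot be told apart.

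Cytoplasmic poly(A)-binding proteins coat the tail of messenger RNA, join it to the initiation factor eIF4G at the cap and thereby promote translation, and they also take part in the timing of tail removal. The nuclear protein PABPN1 binds the tail while it is being made and helps set its length. The PAIP proteins bind cytoplasmic poly(A)-binding protein directly: PAIP1 stimulates translation, whereas PAIP2 and PAIP2B displace the protein from the tail and repress it. QKI proteins are known to bind ACUAA-containing elements in RNA. The table gives 1 value per gene and does not show which stretch of a transcript came down.

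The comparison asks which transcripts are enriched with QKI7. Values are TPM, a share of each library per transcript length, which allows levels of different genes to be set side by side but keeps no read depth. The spike-in RNAs (ERCC, synthetic RNAs added to a sample) took 18.9% and 25.6% of the TPM in Flag-RIP, against 2.78% and 3.89% in input. A typical gene was also higher in Flag-RIP, with a median ratio of mean TPM of 3.32 over the 10415 tested genes (those whose TPM averaged 1 or more). Each library was therefore divided by a median-ratio factor, 1.90 and 1.77 in Flag-RIP against 0.435 and 0.683 in input, and changes below are log2 differences of scaled TPM + 1 unless said otherwise. On this scale the median change of all tested genes was 0.0068, with 2240 genes higher (21.5%) and 2472 lower (23.7%) in Flag-RIP (limma, adjusted p under the 0.05 threshold). These counts were 879 and 1183 without input replicate 1 and 1224 and 395 without Flag-RIP replicate 1, and 1353 and 2018 without input replicate 2 and 2187 and 1617 without Flag-RIP replicate 2. QKI, the tagged gene, had 60.7 and 42.0 TPM in Flag-RIP, against 3.83 and 5.85 TPM in input, a change of 1.56 (SE 0.17, limma adjusted p = 0.0086), in a row that does not separate the tagged from the cell's own transcript. With spike-in scaling QKI lost its call, at 0.63 (limma adjusted p = 0.084). Of 7 mesenchymal markers, 5 had a mean of at least 1 TPM in Flag-RIP and 4 in input, with ALPL and COL1A2 under 1 TPM in every library, and the list summed to 922 and 702 TPM in Flag-RIP, against 250 and 341 TPM in input. The 4 blood markers summed to at most 0.23 TPM in any library. The epithelial list summed to 98.4 and 108 TPM in Flag-RIP, against 72.2 and 84.4 TPM in input, nearly all from the keratins KRT8 and KRT18, and EPCAM and CDH1 stayed under 1 TPM. The neural list summed to 6.35 and 3.23 TPM in Flag-RIP, against 0.51 and 1.08 TPM in input, and the part of these cell types in the results was not tested.

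PABPC1, the main cytoplasmic poly(A)-binding protein of somatic cells, had 952 and 432 TPM in Flag-RIP, against 39.7 and 67.0 TPM in input. Both Flag-RIP libraries lay above both inputs, as they did for 96.7% of tested genes on this deposited scale, and the Flag-RIP libraries stood further apart from each other than the inputs did. Mean TPM was 692 ± 368 in Flag-RIP and 53.4 ± 19.3 in input (SD, n = 2 each), a ratio of 13.0. Scaled to the library medians, PABPC1 had 501 and 244 in Flag-RIP, against 91.2 and 98.2 in input, a ratio of means of 3.93. Its log2 change was 1.87 (SE 0.38), rank 66 of the 10415 tested genes, so 99.4% of tested genes had a lower change. The rank moved with the setting, to 23 with 5 added in place of 1 and to 267 with 0.1 added. It was 42 as deposited, 125 with spike-in scaling and 242 of 10402 without the 20 most abundant rows. By level, PABPC1 was row 19 of all gene rows in Flag-RIP and row 157 in input. Both groups held RNA of the same cells, so these changes are of recovery relative to input and not of expression between cells.

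**Figure D1:**
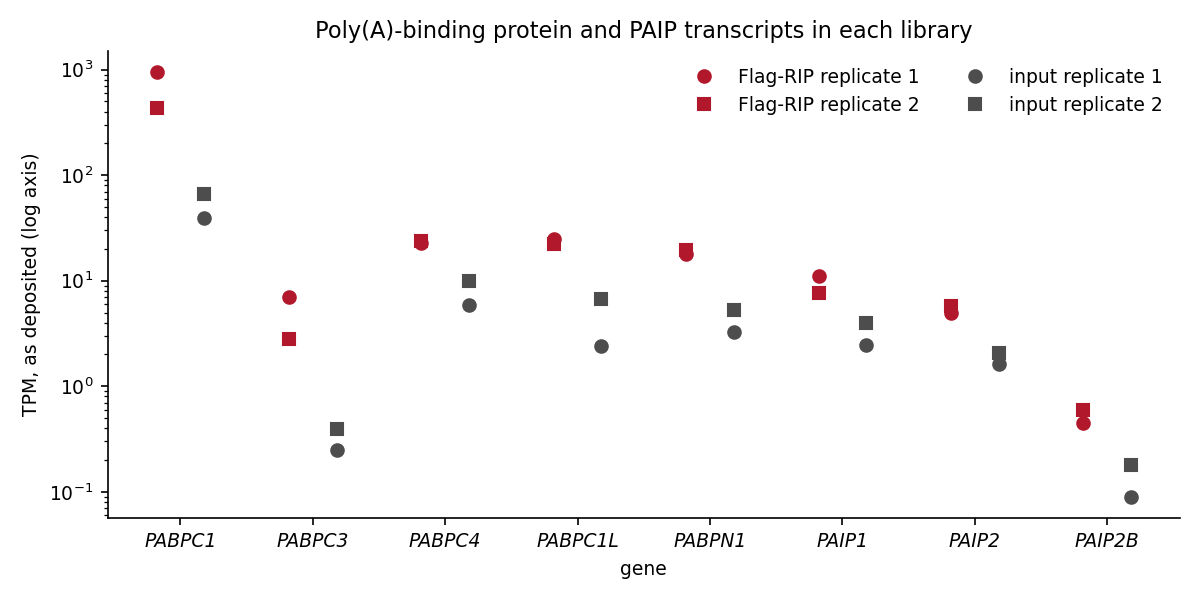
TPM as deposited, on a log axis, of the 8 genes in the 2 Flag-RIP libraries (red) and the 2 input libraries (grey), with circles for replicate 1 and squares for replicate 2. PABPC1 lies above every other gene in each library, at 952 and 432 TPM in Flag-RIP against 39.7 and 67.0 TPM in input, and PAIP2B lies below 1 TPM throughout.

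The size of the PABPC1 enrichment varied between libraries and between scales. The Flag-RIP replicates differed by 1.04 log2 units on the scaled values, a larger gap than in 98.9% of tested genes, while the inputs differed by 0.11, near the median of 0.10. By same-numbered pairs, the ratio of Flag-RIP to input TPM was 24.0 for replicate 1 and 6.44 for replicate 2. The log2 change was 1.38 without Flag-RIP replicate 1 and 2.42 without Flag-RIP replicate 2. It was 3.61 on the deposited scale, where the median gene had 1.2, and 0.89 with spike-in scaling, where the median gene had -0.68. PABPC1 thus lay 2.40, 1.57 and 1.87 log2 units above the median gene on the deposited, spike-in and median-ratio scales.

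**Figure D2:**
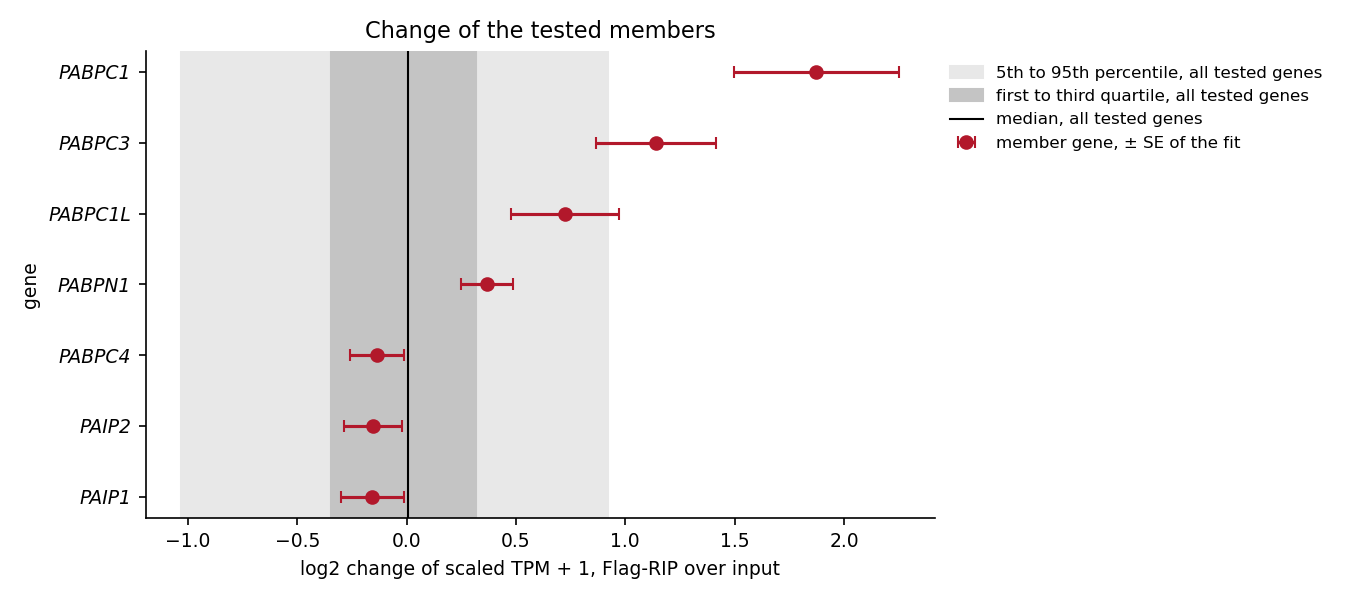
Log2 change of scaled TPM + 1, Flag-RIP over input, for the 7 tested genes (points, with bars of ± 1 SE from the limma fit), on the spread of all tested genes (dark band from -0.35 to 0.32, the interquartile range; pale band from the 5th to the 95th percentile). PABPC1 at 1.87 and PABPC3 at 1.14 lie outside the pale band, and PABPC4, PAIP1 and PAIP2 lie inside the dark one.

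PABPC3 encodes a cytoplasmic poly(A)-binding protein known from testis, and its gene is an intronless copy of PABPC1. It had 6.95 and 2.80 TPM in Flag-RIP, against 0.25 and 0.39 TPM in input. Within each library its TPM was a nearly fixed share of that of PABPC1, 0.730% and 0.648% in Flag-RIP and 0.630% and 0.582% in input. Its libraries therefore kept the order of those of PABPC1 in both groups, with Flag-RIP replicate 1 highest and input replicate 1 lowest. Where reads of near-identical genes are divided by the counting software, the value of the copy is uncertain. The log2 change was 1.14 (SE 0.28, limma adjusted p = 0.025), but the gene passed the filter only through its Flag-RIP values, so this p lends it no support. The p was 0.069 with log centring, 0.066 with no filter and 0.052 without input replicate 1. RefSeq lists 13 pseudogenes named for PABPC1, of which 1 is a row of the table, PABPC1P2, at 0 and 0.02 TPM in Flag-RIP and 0 TPM in both inputs. With PABPC1 and PABPC3 summed into 1 row, a step chosen after the data had been seen, the change was 1.88.

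PABPC4, the inducible cytoplasmic poly(A)-binding protein first found in activated T cells, lay near the typical gene on the scaled values. It had 22.7 and 23.9 TPM in Flag-RIP, against 5.83 and 10.0 TPM in input. The groups are separate as deposited, as for all 8 members, and for 96.7% of tested genes, with both Flag-RIP libraries above both inputs, while 0.845% had them below. After scaling they overlap, at 11.9 and 13.5 in Flag-RIP and 13.4 and 14.7 in input. The log2 change was -0.14 (SE 0.13) and did not pass (limma adjusted p = 0.41), and 38.3% of tested genes had a lower change. Its direction depended on the scale, at 0.17 with log centring, 0.31 without the 20 most abundant rows and 1.48 as deposited. With spike-in scaling it was -1.06 and passed downward (limma adjusted p = 0.0030), as did 6339 of the 10415 tested genes.

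Ratios between family members within a library do not depend on any scaling. PABPC1 over PABPC4 was 42.0 and 18.1 in Flag-RIP, against 6.81 and 6.69 in input. Both Flag-RIP ratios lie above both input ratios, which follows from the choice of PABPC1, and the Flag-RIP ratios lie further apart than the inputs do. With 2 libraries a group the smallest two-sided p that an exact permutation test can give is 0.333, so these ratios were not tested. PABPC1 made up 94.6% and 89.8% of the summed TPM of PABPC1, PABPC3, PABPC4 and PABPC1L in Flag-RIP, against 82.4% and 79.7% in input. PABPC4 made up 2.25% and 4.96% of that sum in Flag-RIP, against 12.1% and 11.9% in input.

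**Figure D3:**
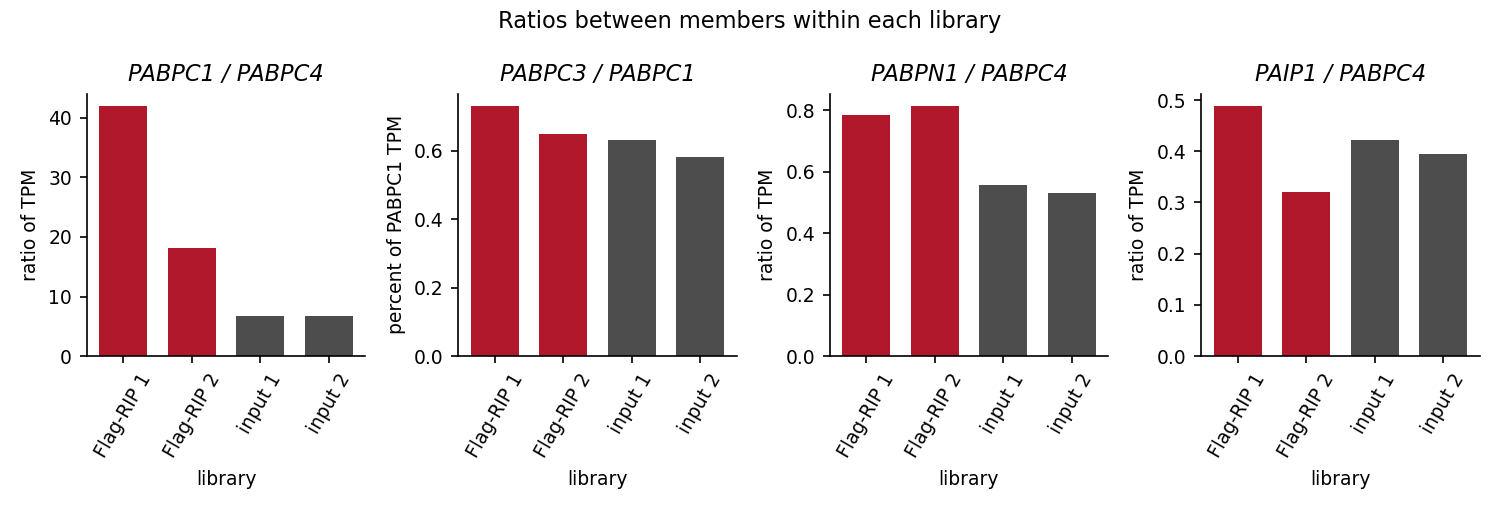
Ratios of TPM between genes of the same library, with 1 bar per library (red for Flag-RIP, grey for input) and axes that start at 0. PABPC1 over PABPC4 is 42.0 and 18.1 in Flag-RIP against 6.81 and 6.69 in input, PABPC3 stays between 0.582% and 0.730% of PABPC1, PABPN1 over PABPC4 is higher in both Flag-RIP libraries, and PAIP1 over PABPC4 overlaps between the groups. A typical tested gene also rises relative to PABPC4.

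PABPC1L, the embryonic poly(A)-binding protein best known from oocytes, had 24.9 and 22.2 TPM in Flag-RIP, against 2.40 and 6.66 TPM in input. The Flag-RIP libraries were close to each other and above both inputs, whose values differed more than for most genes. On the scaled values the inputs were 0.72 log2 units apart, a larger gap than in 98.3% of tested genes. The log2 change was 0.72 (SE 0.25) and did not pass (limma adjusted p = 0.062). It passed without input replicate 2, at 1.07 (limma adjusted p = 0.0080), with log centring, at 0.95 (limma adjusted p = 0.016), and without the 20 most abundant rows, at 1.25 (limma adjusted p = 7.9e-06). With spike-in scaling it was -0.17 (limma adjusted p = 0.63). PABPC1L over PABPC4 was 1.10 and 0.932 in Flag-RIP, against 0.412 and 0.665 in input, and was not tested. The ratio of mean TPM, Flag-RIP over input, was 2.94 for PABPC4, under the median of 3.32 over tested genes. Relative to PABPC4 a typical gene thus rose as well.

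PABPN1, the nuclear poly(A)-binding protein, had 17.8 and 19.4 TPM in Flag-RIP, against 3.25 and 5.32 TPM in input. The scaled values were 9.37 and 10.95 in Flag-RIP and 7.46 and 7.79 in input, with no overlap, as was so for 40.1% of tested genes with Flag-RIP above input. The log2 change was 0.37 (SE 0.12) and lay just outside the threshold (limma adjusted p = 0.054). It passed with log centring, at 0.60 (limma adjusted p = 0.012), and without the 20 most abundant rows, at 0.86 (limma adjusted p = 0.0031), and with spike-in scaling it was -0.52 (limma adjusted p = 0.12). PABPN1 over PABPC4, which needs no scaling, was 0.785 and 0.814 in Flag-RIP, against 0.557 and 0.531 in input. A typical gene also rose relative to PABPC4, whose ratio of mean TPM was 2.94 against a median of 3.32. This ratio of PABPN1 to PABPC4 was not tested.

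PABPN1 shares its whole span of 4707 bases with the annotated readthrough gene BCL2L2-PABPN1, so reads can be divided between the 2 rows. The readthrough row had 11.6 and 10.9 TPM in Flag-RIP, against 2.71 and 5.89 TPM in input, a log2 change of -0.23 (SE 0.16, limma adjusted p = 0.28). On the scaled values both of its Flag-RIP libraries lay below both inputs, as for 39.6% of tested genes, on the opposite side to PABPN1. They were 6.11 and 6.15 in Flag-RIP, against 6.22 and 8.63 in input, so the gap to input replicate 1 was small. With log centring the change of the readthrough row was -0.041. PABPN1 over the readthrough row was 1.53 and 1.78 in Flag-RIP, against 1.2 and 0.903 in input. With the 2 rows summed, a step chosen after the data had been seen, the change was 0.11 (limma adjusted p = 0.55). BCL2L2, the upstream partner, which encodes a survival protein of the BCL2 family, had 4.03 and 3.80 TPM in Flag-RIP, against 0.88 and 1.24 TPM in input, a change of 0.10 (SE 0.084, limma adjusted p = 0.35).

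Transcripts of the PAIP proteins also lay near the typical gene. PAIP1, the activating partner, had 11.1 and 7.66 TPM in Flag-RIP, against 2.46 and 3.95 TPM in input, a log2 change of -0.16 (SE 0.14, limma adjusted p = 0.40). PAIP2, the repressive partner, had 4.98 and 5.79 TPM in Flag-RIP, against 1.64 and 2.05 TPM in input, a log2 change of -0.15 (SE 0.13, limma adjusted p = 0.38). On the scaled values the groups overlap for both. The change of PAIP1 was 0.044 without Flag-RIP replicate 2. With spike-in scaling PAIP1 had -0.98 (limma adjusted p = 0.0013) and PAIP2 -0.90 (limma adjusted p = 0.0011). Both thus passed downward on that scale, as did 6339 of the 10415 tested genes. PAIP2B, a close relative of PAIP2, had 0.45 and 0.59 TPM in Flag-RIP, against 0.09 and 0.18 TPM in input, and fell under the filter. Its level was 9.04% and 10.2% of that of PAIP2 in Flag-RIP, and 5.49% and 8.78% in input. Set against PABPC1, the protein target of both PAIPs, PAIP1 was 1.16% and 1.77% of its TPM in Flag-RIP and 6.20% and 5.89% in input. PAIP2 was 0.523% and 1.34% of it in Flag-RIP and 4.13% and 3.06% in input. These lower shares in Flag-RIP follow from the choice of PABPC1 for its high recovery. PAIP1 over PABPC4 was 0.488 and 0.321 in Flag-RIP, against 0.422 and 0.394 in input. PAIP2 over PABPC4 was 0.220 and 0.243 in Flag-RIP, against 0.281 and 0.205 in input, and the groups overlap for both ratios.

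In order of mean TPM, Flag-RIP held PABPC1 (692), PABPC1L (23.6), PABPC4 (23.3), PABPN1 (18.6), PAIP1 (9.37), PAIP2 (5.39), PABPC3 (4.88) and PAIP2B (0.52). PABPC1L and PABPC4 changed places between the 2 Flag-RIP libraries, and so did PAIP2 and PABPC3. In input the order was PABPC1 (53.4), PABPC4 (7.93), PABPC1L (4.53), PABPN1 (4.29), PAIP1 (3.21), PAIP2 (1.85), PABPC3 (0.32) and PAIP2B (0.14). Between the 2 input libraries PABPC1L changed places with PABPN1 and with PAIP1. The input ranges of PABPC4 and PABPC1L overlap, as do those of PABPN1 and PAIP1, but within each input library their order was the same. Of the 6 members tested beside PABPC1, only PABPC3 passed upward and 0 passed downward, against 21.5% and 23.7% of all tested genes. The unadjusted p lay under 0.05 for PABPC3, PABPC1L and PABPN1.

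The genes spread over the genome, with PABPC1 on chromosome 8 from 100702916 to 100722088 and PABPC3 on chromosome 13 from 25096136 to 25099254 (RefSeq, GRCh38.p14). PABPC4 lies on chromosome 1 from 39560816 to 39576790, PABPC1L on chromosome 20 from 44910060 to 44939316, and PABPN1 on chromosome 14 from 23321457 to 23326163. PAIP1 and PAIP2 lie on chromosome 5, from 43526267 to 43557411 and from 139341854 to 139369717, and PAIP2B on chromosome 2 from 71182738 to 71227103. The other rows of the family were all under the filter. PABPC4L, at 1.41 and 1.42 TPM in Flag-RIP against 0.18 and 0.34 TPM in input, was the highest of them, and PABPC5, PABPN1L, PABPC1L2A, PABPC1L2B and the antisense rows PABPC5-AS1 and PABPC1L2B-AS1 stayed under 1 TPM in every library.

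**Figure D4:**
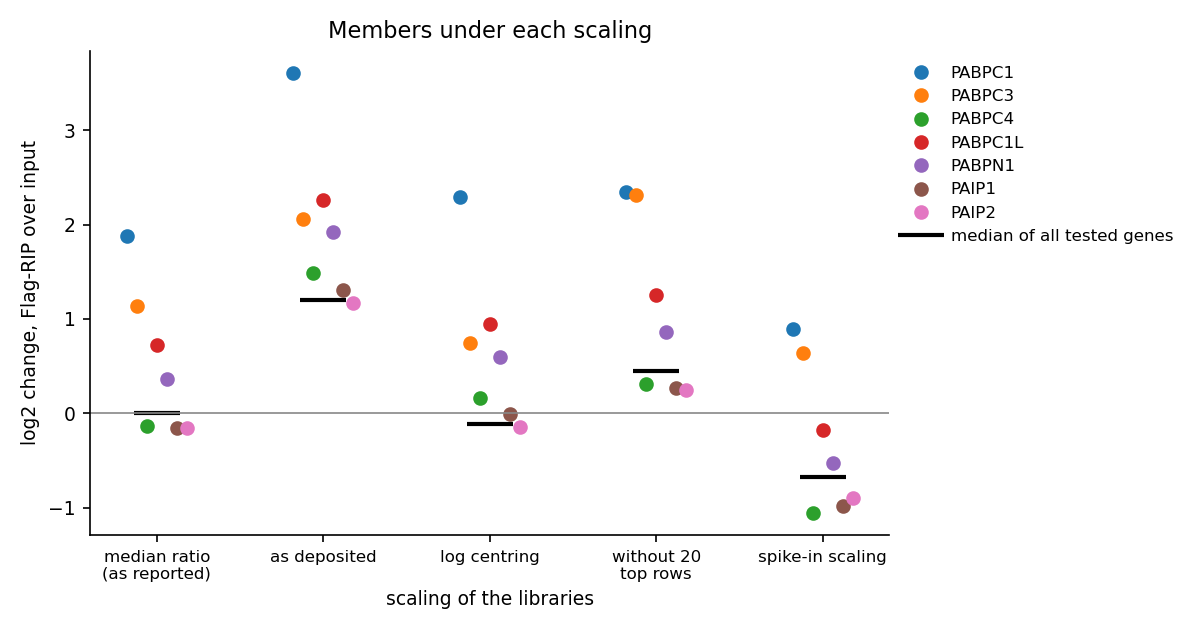
Log2 change, Flag-RIP over input, of the 7 tested genes (coloured points) and the median of all tested genes (black bars) under 5 scalings of the libraries, with a line at 0. The median of all genes moves between 1.2 as deposited and -0.68 with spike-in scaling, and PABPC1 is the highest of the 7 genes under each of these scalings.

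The 5 tested genes with a mean of at least 10 TPM whose values over the 4 libraries lay nearest to those of PABPC1 were CLIP3, ANKRD40, GINS4, LAPTM4B and RAB31. The measure was the Euclidean distance of scaled log2 values, each minus the gene's mean, over 1818 candidates. CLIP3 was nearest, at a distance of 0.049, with 100 and 44.4 TPM in Flag-RIP against 3.86 and 6.27 TPM in input. RAB31 was the fifth, at 0.21, with 49.9 and 24.3 TPM in Flag-RIP against 2.19 and 3.68 TPM in input.

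Messenger RNAs with a 5′ terminal oligopyrimidine (TOP) tract, a C at the first base followed by an unbroken run of pyrimidines, form the translation-machinery class to which PABPC1 is known to belong. A list of 14 other known TOP messenger RNAs, ribosomal protein genes left out, was compared. The class is named for this tract, so start sites from RefSeq (GRCh38.p14) are shown for the 2 list genes that fell most, for the most abundant one and for NAP1L1, the only one with a change above 0, and below them for the members PABPC1L, PABPN1, PAIP1 and PAIP2B. Each run has 15 bases before and 15 bases from the annotated start, on the gene's strand, and capitals mark a C at the start with the pyrimidines that follow it, where at least 4 do.
EEF1B2: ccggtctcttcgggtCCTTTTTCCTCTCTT
RACK1: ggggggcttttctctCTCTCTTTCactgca
EEF1A1: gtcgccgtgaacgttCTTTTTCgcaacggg
NAP1L1: ggcgggctcttgggtCTTTTTTagcgccat
PABPC1L: gggcccgcgcccaggaaggagggcttccgc
PABPN1: cgggcggcgggccccagtctgagcggcgat
PAIP1: tccccccgtgtttttatttcccgggcgtca
PAIP2B: gcggggcgaggaggcagtgtgcagtaagag
These windows lie at chr2:206159880-206159909 (plus strand, the second of 2 annotated starts), chr5:181243892-181243921 (minus), chr6:73521018-73521047 (minus) and chr12:76084671-76084700 (minus) for the 4 list genes. For the members they lie at chr20:44910045-44910074 (plus), chr14:23321442-23321471 (plus), chr5:43557397-43557426 (minus) and chr2:71227089-71227118 (minus). Of the list, 10 genes had a window and 8 of these held the tract at a start, as did 0 of the 4 members shown, against 4.07% of the 35116 windows in the table, searched on the gene's strand only. PABPC1, PABPC3 and PABPC4 have no window here.

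Of the 14 TOP messenger RNAs tested, 0 rose and 10 fell, with a median log2 change of -0.75 (limma, adjusted p under 0.05), against 21.5% higher, 23.7% lower and a median of 0.0068 over all tested genes. PABPC1, at 1.87, stood on the other side of the all-gene median from all of them but NAP1L1, a histone chaperone gene with 0.15 (SE 0.10, limma adjusted p = 0.29). Since PABPC1 was picked for its high recovery, its place above the list follows from that choice and is no result about the class. EEF1B2, which encodes a subunit of the elongation factor exchange complex, had 85.8 and 89.3 TPM in Flag-RIP, against 69.1 and 79.3 TPM in input, and fell by 1.49 (SE 0.22, limma adjusted p = 0.010). RACK1, a scaffold protein of the small ribosomal subunit, had 217 and 225 TPM in Flag-RIP, against 171 and 191 TPM in input, and fell by 1.45 (SE 0.25, limma adjusted p = 0.012). EEF1A1, the elongation factor that brings aminoacyl-tRNA to the ribosome, had 1039 and 780 TPM in Flag-RIP, against 288 and 351 TPM in input, a change of -0.25 (SE 0.29, limma adjusted p = 0.50). The fall is relative to the typical gene: as deposited, 11 of the 14 were higher in Flag-RIP (limma, against 92.3% of all tested genes) and their median was 0.94, under the 1.2 of all genes. All 14 had a mean of at least 5 TPM, and abundant genes fell more often on this scale. Among the 3997 genes at that level 1603 were lower and the median change was -0.19, with 10 of the 14 still lower. The list median lay 0.56 log2 units under the median of those genes. This cut does not match the list by level, since genes such as RACK1 lie far above 5 TPM. The part of level in the remaining gap was not tested. The median of the list lay under that of all genes by 0.27 log2 units on the deposited and log-centred scales and by 1.03 with spike-in scaling. With log centring 1 of the 14 was higher and 4 lower, against 1703 and 2545 of the 10415 tested genes. Without the 20 most abundant rows 1 was higher and 7 lower, against 3748 and 730 of 10402. With the replicate number as a block 0 were higher and 5 lower, against 1833 and 1769 of 10415. The number lower was also smaller without either Flag-RIP library or without input replicate 1, as it was over all tested genes. The calls of EEF1B2 and RACK1 were lost without Flag-RIP replicate 1 (limma adjusted p = 0.058 and 0.077), and that of RACK1 also without Flag-RIP replicate 2 (limma adjusted p = 0.055).

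**Figure D5:**
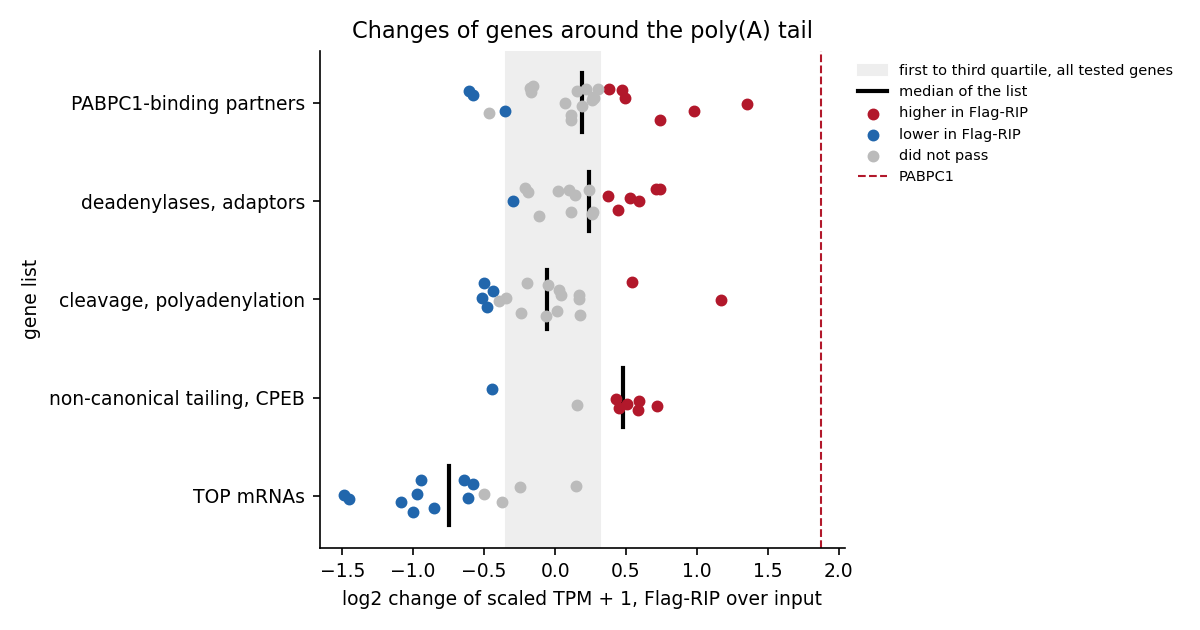
Log2 change of scaled TPM + 1, Flag-RIP over input, for the tested genes of 5 lists (points, red where higher, blue where lower and grey where the test was not passed), with black bars at each list's median, a grey band for the interquartile range of all tested genes and a dashed line at the change of PABPC1. The TOP messenger RNAs centre at -0.75 and the other 4 lists between -0.06 and 0.48. PABPC1, which was picked for its high recovery, lies at 1.87 above every gene shown.

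Proteins that bind PABPC1 include the initiation factor eIF4G, the termination factor eRF3 and the GW182 proteins of microRNA silencing. A list of 24 genes for such proteins, and for initiation and termination factors that act with them, was compared. Of these 23 were tested, of which 6 rose (26.1%) and 3 fell (13.0%), with a median of 0.19, against 21.5% higher and 23.7% lower over all tested genes. Of the 6 tested genes with a mean under 1 TPM in input, which pass the filter through Flag-RIP, TNRC6C and TOB1 were among those that rose, so their p-values lend them no support. The eIF4G gene EIF4G1 had -0.46 (SE 0.15, limma adjusted p = 0.058), whereas EIF4G3 rose by 0.47 (SE 0.085, limma adjusted p = 0.013). The eRF3 gene GSPT1 fell by 0.35 (SE 0.096, limma adjusted p = 0.034), and GSPT2 had -0.17 (SE 0.15, limma adjusted p = 0.38). The largest changes were those of the GW182 genes TNRC6A and TNRC6C, while the third GW182 gene, TNRC6B, had 0.26 (SE 0.10, limma adjusted p = 0.095). TNRC6A had 19.2 and 15.3 TPM in Flag-RIP, against 1.33 and 2.08 TPM in input, a change of 1.35 (SE 0.11, limma adjusted p = 0.0074), and TNRC6C changed by 0.98 (SE 0.10, limma adjusted p = 0.0086). The initiation factor genes EIF4A1, the helicase, and EIF4B, its cofactor, fell by 0.61 (SE 0.19, limma adjusted p = 0.048) and 0.58 (SE 0.16, limma adjusted p = 0.039), and these 2 calls were lost with log centring, with the replicate number as a block and without any library but input replicate 2. With the block the list had 6 higher and 0 lower, against 1833 and 1769 of all tested genes. Fewer were called higher without either input library or without Flag-RIP replicate 1, as over all tested genes. Without each library in turn the list median ranged from 0.14 to 0.27. With spike-in scaling 0 genes of this list and of the 3 that follow were called higher, against 325 of the 10415 tested genes. Called lower were 11 of the 23 here, and 8 of 17, 13 of 18 and 1 of 8 in the lists that follow. Over all tested genes 6339 were lower on that scale.

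Among the deadenylases, which remove the tail, and their adaptors, 17 of 21 genes were tested, of which 6 rose and 1 fell, with a median of 0.24, against 21.5% higher and 23.7% lower over all tested genes. Of the 6 tested genes with an input mean under 1 TPM, which pass the filter through Flag-RIP, 2 were among those that rose, TOB1 being one of them, so its p lends it no support. TOB1, an adaptor that binds both PABPC1 and the deadenylase, had 6.98 and 4.23 TPM in Flag-RIP, against 0.56 and 1.01 TPM in input, a change of 0.74 (SE 0.17, limma adjusted p = 0.021). The catalytic subunit gene CNOT7 rose by 0.71 (SE 0.14, limma adjusted p = 0.015). CNOT11 fell by 0.30 (SE 0.086, limma adjusted p = 0.041), and CNOT1, the scaffold and the most abundant of the list, had -0.19 (SE 0.098, limma adjusted p = 0.16). Fewer of the 17 were called higher without either input library or without Flag-RIP replicate 1, as over all tested genes. The list median then ranged from 0.15 to 0.27. The call of TOB1 was lost without input replicate 1 (limma adjusted p = 0.071), and that of CNOT11 without any 1 of the 4 libraries.

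In the nuclear cleavage and polyadenylation machinery, which makes the tail that PABPN1 binds, 18 of 19 genes were tested, of which 2 rose (11.1%) and 4 fell (22.2%), with a median of -0.06, against 21.5% higher and 23.7% lower over all tested genes. CPSF7, a subunit of the cleavage factor that selects poly(A) sites, had 42.9 and 28.8 TPM in Flag-RIP, against 3.36 and 5.63 TPM in input, a change of 1.17 (SE 0.18, limma adjusted p = 0.010). The termination factor gene PCF11 had 0.54 (SE 0.093, limma adjusted p = 0.012), but its input mean was 0.77 TPM and it passed the filter only through Flag-RIP, so this p lends it no support. CSTF1 fell by 0.52 (SE 0.078, limma adjusted p = 0.010) and the endonuclease gene CPSF3 by 0.50 (SE 0.096, limma adjusted p = 0.015). CPSF1, the most abundant of the list, had -0.20 (SE 0.12, limma adjusted p = 0.23). Fewer were called lower without input replicate 1 or without either Flag-RIP library, as over all tested genes. The list median then ranged from -0.12 to -0.053. Without input replicate 1 the calls of PCF11 and CPSF3 were lost, and that of CPSF3 also without Flag-RIP replicate 1.

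Of 14 genes for non-canonical poly(A) polymerases, uridylyltransferases and the tail-regulating CPEB proteins, 8 were tested, of which 6 rose and 1 fell, with a median of 0.48, against 21.5% higher and 23.7% lower over all tested genes. Of the 6 that rose, 5 had an input mean under 1 TPM and passed the filter through Flag-RIP, CPEB4 and TUT7 among them, so neither this count nor their p-values support a rise. CPEB4 had 2.61 and 1.44 TPM in Flag-RIP, against 0.10 and 0.20 TPM in input, a change of 0.72 (SE 0.16, limma adjusted p = 0.019), which was 0.052 with log centring (limma adjusted p = 0.88) and 0.39 with spike-in scaling (limma adjusted p = 0.10). TUT7 (ZCCHC6 in the table) had 0.59 (SE 0.12, limma adjusted p = 0.016). TENT4A (PAPD7), the most abundant, rose by 0.51 (SE 0.095, limma adjusted p = 0.014), and TENT5B (FAM46B) fell by 0.44 (SE 0.10, limma adjusted p = 0.023). With log centring 2 of the 8 rose and 1 fell, against 1703 and 2545 of the 10415 tested genes. Fewer were also called higher without either input library, as over all tested genes. The list median was 0.50 without input replicate 1 and 0.48 without input replicate 2. The call of TENT4A was kept only without Flag-RIP replicate 2, and that of TENT5B only without input replicate 2, of the 4 libraries left out in turn. Of the other poly(A)-binding genes only ZC3H14, a zinc finger protein that binds poly(A) in the nucleus, was tested. It had 19.2 and 17.3 TPM in Flag-RIP, against 2.71 and 4.27 TPM in input, a rise of 0.60 (SE 0.098, limma adjusted p = 0.011), and the call was lost without input replicate 1 (limma adjusted p = 0.054).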

How the data were processed

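The authors deposited 1 table of TPM values with 1 column per library, for 26830 genes and 92 ERCC rows. STAR and RSEM version 1.2.31 with GRCh38 are named per the submitters' processing notes; which annotation, which filters and whether strand was used was not given in the sources used here. Since TPM keeps no depth, no counting interval is given.

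Spike-in rows were left out of tests. Each library was divided by its median ratio to the per-gene geometric mean, over genes above 0 in all 4 libraries with a mean of at least 1 TPM. Scaling came before the logarithm because shifting values after the pseudocount was added makes the rise of low genes look smaller, as the pseudocount itself also does. The 10415 genes averaging 1 TPM or more were fitted by lmFit and eBayes with a trend (limma 3.58.1, R 4.3.3), two-sided, with Benjamini-Hochberg adjustment over all of them. Adjusted p-values are from this fit unless another setting is named, which was fitted the same way. Residual degrees of freedom were 2 and prior ones 3.23.

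The members, the gene lists and the tests were chosen with earlier results of these data known. The lists share genes, so their counts and medians are not independent. EIF4B is in the partner and TOP lists, and PAN3, TOB1 and TOB2 are in the partner and deadenylase lists. Named beside the members were rows that could share their reads, QKI, and for each list the 2 largest rises, the 2 largest falls and the most abundant gene, and the 5 genes nearest in pattern to PABPC1. NAP1L1 was named after its value was seen. The alternatives were other scalings, pseudocounts, filters, variance models, a replicate block and leaving out each library. The start window of 1 member is not reported here.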

Additional observations from a re-analysis of the deposited data

How the results depend on the processing

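TPM keeps no depth, 2 libraries a group leave 2 residual degrees of freedom, and the direction of a typical gene depends on the scaling, which no measurement here settles. As deposited, 9608 genes were higher and 33 lower. Members then changed by 3.61 (PABPC1), 1.48 (PABPC4), 2.27 (PABPC1L), 1.92 (PABPN1), 1.30 (PAIP1) and 1.17 (PAIP2). BCL2L2-PABPN1 had 1.28, EIF4B 1.14, EIF4A1 1.10, CNOT1 1.36, CNOT11 1.00, CPSF1 1.47, CPSF3 0.75, CSTF1 0.73, FAM46B 0.71, EEF1A1 1.5, EEF1B2 0.24 and RACK1 0.29. List medians were 1.61 (partners), 1.36 (deadenylases), 1.22 (cleavage), 1.35 (non-canonical tailing) and 0.94 (TOP). With log centring PABPC3 had 0.74, PABPC4 0.17, PABPC1L 0.95, PABPN1 0.60, BCL2L2 -0.058, CNOT1 0.040, CPSF1 0.15 and EEF1A1 0.18, and the medians were 0.30 (partners), 0.040 (deadenylases), 0.032 (non-canonical tailing) and -0.38 (TOP). With spike-in scaling 325 genes were higher and 6339 lower. PABPC1 had 0.89, PABPC4 -1.06, PABPC1L -0.17, PABPN1 -0.52, PAIP1 -0.98, PAIP2 -0.90, BCL2L2 -0.55, ZC3H14 -0.28, CNOT7 -0.044, PCF11 -0.098, PAPD7 -0.34 and ZCCHC6 -0.044, and the medians were -0.68, -0.38, -0.83, -0.076 and -1.71 in the same order of lists. Without the 20 most abundant rows 3748 genes were higher and 730 lower. PABPC4 had 0.31, PABPC1L 1.25, PABPN1 0.86, PAIP1 0.26, PAIP2 0.25, BCL2L2-PABPN1 0.20, CNOT1 0.24, CNOT11 0.059, CPSF1 0.25 and EEF1A1 0.21, and the medians were 0.66, 0.81, 0.37, 1.23 and -0.31. The cause of these moves was not tested.

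With a mean TPM of at least 5, 790 genes were higher and 1603 lower of fewer genes tested, PABPC1L (0.72) and PABPN1 (0.37) passed, and the cleavage median was -0.20. With no filter PABPC3 (1.14) did not pass and the non-canonical tailing median was 0.32. With no variance trend PABPN1 (0.37, adjusted p = 0.047) passed. With a pseudocount of 0.1 the deadenylase and non-canonical tailing medians were 0.38 and 0.81, and with 5 the partner, deadenylase and non-canonical tailing medians were 0.099, 0.087 and 0.18. With a pseudocount of 0.1 the change of PABPC3 (1.90) exceeded that of PABPC1 (1.88).

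Without each library in turn, the range was 879 to 2187 for genes higher and 395 to 2018 for genes lower. It was 1.38 to 2.42 for PABPC1, 0.65 to 1.47 for PABPC3, -0.23 to -0.026 for PABPC4 and 0.34 to 1.07 for PABPC1L. It was 0.28 to 0.49 for PABPN1, -0.30 to 0.044 for PAIP1 and -0.31 to -0.0094 for PAIP2. Medians ranged from 0.14 to 0.27 for partners, 0.15 to 0.27 for deadenylases, -0.12 to -0.053 for cleavage, 0.43 to 0.50 for non-canonical tailing and -0.90 to -0.67 for TOP messenger RNAs. The arm with 1 library was then assumed to vary like the other. Replicate 1 minus replicate 2 differences correlated at r = -0.098 between the groups over tested genes, so the replicate numbers are not shown to pair the libraries. With the replicate number as a block, 1833 genes were higher and 1769 lower, and PABPC1 changed by 1.87 as before. With the block the calls of EIF4A1, EIF4B, CNOT11 and GSPT1 were lost, and no member crossed the threshold.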
